A study of Homo sapiens with 6 samples.

Results

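The regions described here are short m6A peaks inside exons. They were all rows of the 2 deposited peak tables annotated as an exon, outside the 3' and 5' UTR labels, in which the annotated exon belonged to the gene the peak was assigned to and the peak was a single uninterrupted block of under 400 bases. In the table of IP against input 6076 of 42634 rows (14.3%) met this rule, and they made up 6075 distinct peaks in 4358 genes. Of 19983 rows with a differential value, 1895 (9.48%) met it, in 1672 genes. The rule used annotation and length alone, and no measured value.

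The cells were Kasumi-1, a human cell line grown from an acute myeloid leukaemia with the RUNX1-RUNX1T1 fusion and labelled wild type. They received CoCl2 (100 uM), which stabilises hypoxia-inducible factors, together with echinomycin (10 nM), which blocks HIF-1 binding to DNA, for 24 hours. The 6 libraries were 3 IP and 3 input libraries of this combined treatment, described as biological replicates. The authors compared the combined treatment with CoCl2, and the CoCl2 libraries themselves were not analysed here.

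N6-methyladenosine (m6A) is a methyl mark that the METTL3-METTL14 complex places on adenosines of messenger and long noncoding RNA, mostly within a short consensus around the bases GGAC. It is known to be dense in long internal exons and around stop codons, and sparse near exon junctions. Reader proteins of the YTH family bind it and alter splicing, export, translation and decay, while FTO and ALKBH5 remove it. In the assay used here, an m6A antibody pulls down pieces of poly(A) RNA (IP), which are set against the RNA before the pulldown (input), so a peak marks a stretch of transcript and not a single base.

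Each table gives 1 value per peak and none per replicate, so no test over samples was possible for enrichment or its change, and a call below is the authors' FDR under 0.05. Input FPKM (fragments per kilobase of transcript, scaled to library size) was available for each of the 3 input libraries, and the read depth behind it is unknown. The line's own markers were above 1 FPKM, at unequal levels. Mean input levels were 56.2 FPKM for MPO, 50.9 FPKM for SPI1, 40.4 FPKM for KIT and 14.8 FPKM for CD34. RUNX1T1 (4.21 FPKM) and CD33 (1.48 FPKM) were lower. Of 5 lymphoid markers CD3D (32.1 FPKM) and CD79A (5.03 FPKM) were also above 1 FPKM, while CD2 was listed at 0, CD3E was at 0.181 FPKM and MS4A1 at 0.0345 FPKM. Of 3 stromal markers COL1A1 (0.680 FPKM) and PDGFRB (0.0251 FPKM) were under 1 FPKM. Values for COL1A2 and for the 3 erythroid markers were not analysed here. In bulk RNA, fewer cells with a transcript and less of it per cell cannot be told apart.

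Sequence could be read for members that lay wholly inside a RefSeq window around a gene start (GRCh38.p14, from 250 bases before the start to 50 after it), and 37 members did. These lie near RefSeq gene starts, some of them, such as those of GNAI2 and SLC26A6, wholly before the start of their window's gene. They are not a sample of all members. The 5 below are shown because they contrast members with and without GGACT, the DNA spelling of the best known m6A consensus. They are written along the transcript with the motif in capitals, as are 2 related pentamers in which A or C takes the place of its last base.
GNAI2: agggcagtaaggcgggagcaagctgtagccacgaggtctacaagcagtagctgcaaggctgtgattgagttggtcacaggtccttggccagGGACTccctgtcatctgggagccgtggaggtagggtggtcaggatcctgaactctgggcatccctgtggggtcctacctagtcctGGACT
SLC26A6: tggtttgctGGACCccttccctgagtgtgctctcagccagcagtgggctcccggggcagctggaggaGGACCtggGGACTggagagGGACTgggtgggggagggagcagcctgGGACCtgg
PTOV1: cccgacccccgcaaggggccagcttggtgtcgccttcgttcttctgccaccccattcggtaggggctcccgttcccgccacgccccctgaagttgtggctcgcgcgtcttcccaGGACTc
TRAPPC6B: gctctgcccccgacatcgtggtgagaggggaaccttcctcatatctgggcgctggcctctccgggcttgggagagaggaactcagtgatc
BNIP3: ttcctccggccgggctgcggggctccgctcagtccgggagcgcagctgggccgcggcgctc

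The GNAI2 member (chr3:50230291-50230471, plus strand), in the gene of an inhibitory G protein alpha subunit, held 2 copies of GGACT and had a fold enrichment of 3.73. The SLC26A6 member (chr3:48633941-48634061, minus strand), in an anion exchanger gene, held 2 copies of GGACT and 3 of the form ending in C at a fold enrichment of 1.84. The PTOV1 member (chr19:49850898-49851017, plus strand) held 1 copy of GGACT at 2.79. The TRAPPC6B member (chr14:39170443-39170532, minus strand), in the gene of a vesicle tethering subunit, held none of the 3 pentamers and had the highest enrichment of the 5, 15.8. The BNIP3 member (chr10:131981893-131981953, minus strand), in the gene of a mitophagy receptor known as a HIF-1 target, also held none, at 1.48. Among these 5 the copies of the motif and the enrichment did not run in the same order. The 5 were picked to contrast the motif, those of GNAI2, PTOV1 and BNIP3 after values were seen. Their order therefore cannot show how motif and enrichment relate over members.

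GGACT occurred on the transcript strand in 5 of the 37 members (13.5%, exact 95% interval 4.54 to 28.8). The same stretches of all 35116 start windows held it in 10.4% on average, a value inside that interval. Any of the 3 pentamers occurred in 12 of 37 (32.4%), against 28.1% of the same stretches of all windows. Most of each window lies before the gene start, so the compared stretches need not be transcribed and are not a set of exon sequences. These matches are letters in a window and do not show where a methyl group sits.

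In the peak list 9 members shared bases with 8 microRNA hairpins. Of these, 3 members had exactly the limits of the hairpin entry, so that the peak ended where the annotated transcript ended. The hairpins of miR-210, known as a hypoxia-induced microRNA, and miR-223, a microRNA of the myeloid lineage, are shown with GGACA in capitals, followed by their mature 3p arms with the seed (bases 2 to 8) in capitals.
MIR210 hairpin: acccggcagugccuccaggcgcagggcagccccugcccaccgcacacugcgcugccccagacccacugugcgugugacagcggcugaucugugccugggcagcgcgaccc
MIR223 hairpin: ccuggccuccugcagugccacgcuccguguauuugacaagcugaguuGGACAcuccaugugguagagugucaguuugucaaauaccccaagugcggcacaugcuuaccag
hsa-miR-210-3p: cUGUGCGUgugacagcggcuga
hsa-miR-223-3p: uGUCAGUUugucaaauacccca

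The miR-210 member (chr11:568089-568198, minus strand) was the whole hairpin and had a fold enrichment of 14 (log10 FDR -2.67). Input levels of MIR210 were 3.58, 2.68 and 3.22 FPKM in the 3 input libraries. It lay inside a spliced peak of 1131 exonic bases with a fold enrichment of 8.58, annotated to the host RNA MIR210HG, so the same fragments can count for both. MIR210HG had a member of its own at chr11:565660-565898, with a fold enrichment of 3.10. For the change against CoCl2 the authors tested a longer spliced peak over this locus (chr11:565660-568457, 2321 exonic bases). It is not a member, and its limits take in the MIR210HG member as well. This longer peak had a log2 fold change of -0.939 (log10 FDR -208) for the combined treatment over CoCl2 in the authors' deposited table. The MIR223HG member (chrX:66018873-66019230, plus strand) covered 107 of the 110 bases of the miR-223 hairpin, with a fold enrichment of 3.29, at input levels of 1.49, 2.12 and 1.57 FPKM. The libraries were made from fragmented poly(A) RNA, so these values concern the host transcripts and not the mature microRNAs.

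Members were 55 to 399 bases long, with a median of 181 and quartiles of 119 and 270. Of the 6075, 4497 (74.0%) had a length that was a multiple of 30 bases or 1 more, and 551 were exactly 61 bases. At the limit, the peaks just inside were 399, 398 and 397 bases long with fold enrichments of 6.36, 5.12 and 10.5, and those just outside were 402, 403 and 403 bases long with 8.54, 9.31 and 4.4. There were 3271 genes (75.1%) with a single member, and 1249 members were in genes with no other listed peak.

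The members lay in all parts of their transcripts, most often in a last exon. A last exon held 56.1% of them (54.9 to 57.4, exact 95% interval), counting the 23.0% in transcripts of a single exon, and 54.5% lay in transcripts of up to 3 exons, beside 52.0% of all exon peaks. A first exon held 19.3% and an internal exon 24.6%. Among the 2432 exon peaks with a single longer block 63.8% were in a last exon, and among the 3212 exon peaks that span junctions 10.2% were. Members reached exactly to the annotated 5' end of their transcript in 663 cases (10.9%) and to its 3' end in 573 (9.43%).

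Their genes were mixed in kind. By symbol in the RefSeq table, 49.5% of members lay in protein-coding genes, 14.1% in long noncoding RNAs and 12.2% in pseudogenes, and 23.9% had a symbol that the table does not list. Long exon blocks lay in protein-coding genes in 41.5% of cases and exon peaks across junctions in 59.0%. The most members in 1 gene were 16 in JPX, a noncoding RNA of the X inactivation centre. CCDC168 and the noncoding LINC00662 had 14 each, C2orf16 had 12, and SPG7, a mitochondrial protease, and ZFHX3, a zinc finger transcription factor, had 11 each. Of these 6 genes SPG7 was the 1 above 1 FPKM, with 4.79, 4.82 and 4.27 FPKM in the input libraries.

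The genes with a member had low input levels, as had those of other exon peaks. Their median mean input level was 0.919 FPKM, with library medians of 0.891, 0.992 and 0.886 FPKM (4183 genes with a value), against 0.891 FPKM for genes with a long exon block, 1.42 FPKM for those with an exon peak across junctions and 3.63 FPKM for the 9877 genes with a 3' UTR peak. Mean input was 1 FPKM or more in 2027 genes with a member. A further 175 genes had no row in the FPKM table. Pseudogene members can share reads with their parent genes, which was not tested here, so their levels and peaks are uncertain.

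Taken over all lengths the members had a lower median enrichment than the other exon peaks, but at matched length a higher one than exon peaks across junctions. Their median fold enrichment, the authors' IP over input ratio, was 3.73 (quartiles 2.34 and 6.52). The median was 7.14 in single longer exon blocks, 4.79 in exon peaks across junctions and 2.84 in short 3' UTR peaks. An authors' FDR under 0.05 was reached by 4509 members (74.2%), against 87.4% of all listed peaks, 92.0% of long exon blocks and 84.3% of short 3' UTR peaks. The list therefore held 1566 members above that FDR.

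Fold enrichment of members was higher in longer blocks and in weakly expressed genes. By length, the median was 2.66 under 100 bases, 3.42 from 100 up to 200, 4.66 from 200 up to 300 and 5.80 from 300 up to 400. In exon peaks across junctions of the same exonic lengths it was 2.46, 2.73, 3.73 and 4.5. In genes of 5 FPKM or more, the 3 classes from 100 bases upwards had medians of 1.93, 2.21 and 2.77 in members, 1.56, 1.88 and 2.33 in exon peaks across junctions and 1.93, 2.29 and 2.86 in short 3' UTR peaks. By input level, it was 5.12 under 1 FPKM, 2.79 from 1 to 5, 2.20 from 5 to 20 and 1.77 at 20 FPKM or more. The share at an FDR under 0.05 went the other way with input level, 66.1% under 1 FPKM and 92.0% at 20 or more. Short 3' UTR peaks had medians of 4.66, 2.69, 2.20 and 2.04 in the same 4 classes of input level. Spearman's rank correlation with fold enrichment across members was 0.37 for block length (n = 6075) and -0.53 for mean input FPKM (n = 5862). Members of 1 gene share its input level, and input enters the enrichment ratio itself.

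**Figure D1:**
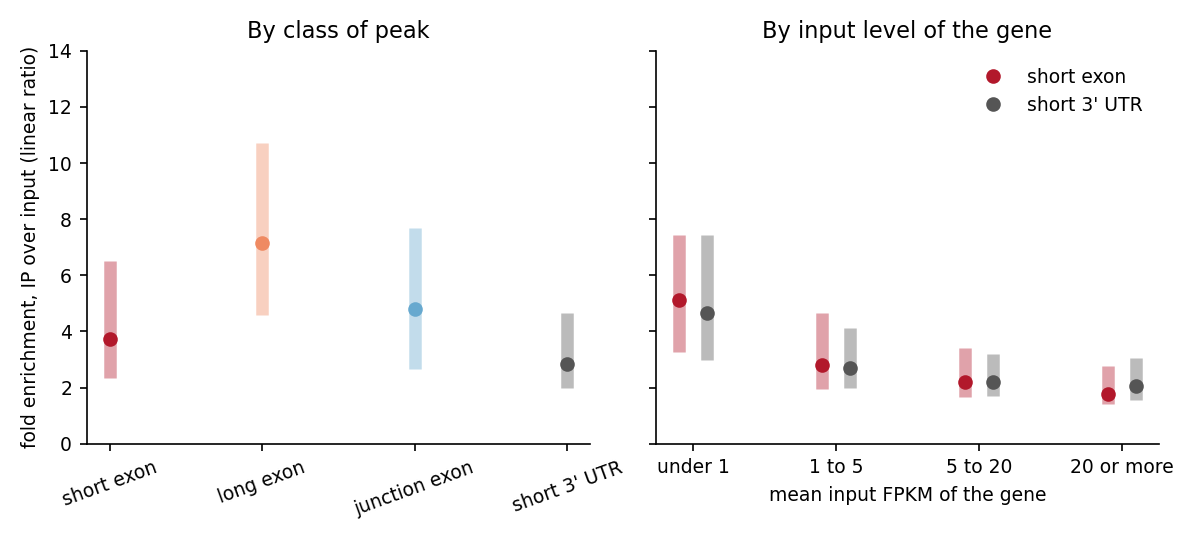
Fold enrichment of IP over input (linear ratio, authors' values) by class of peak on the left and by mean input FPKM of the gene on the right; points are medians over peaks and bars run from the first to the third quartile. Short exon peaks have a median of 3.73 against 7.14 for long exon blocks, and their median is 5.12 in genes under 1 FPKM and 1.77 at 20 FPKM or more.

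In protein-coding genes of 5 FPKM or more, internal exons had the members of lowest median enrichment, as they did among other exon peaks. There the median fold enrichment was 1.78 in 414 internal-exon members and 2.42 in 260 first-exon members. It was 2.21 in 239 members of the last of several exons and 2.57 in 33 of single-exon transcripts. Long exon blocks had 3.795 in internal, 5.57 in first and 4.125 in the last of several exons. Exon peaks across junctions had 2.585, 3.18 and 3.225 in the same order.

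Among genes of 5 FPKM or more, the most enriched members were in genes of varied function. The highest value, 54.0, was in PI4KAP2, a pseudogene of a phosphatidylinositol kinase. Its reads may come in part from near copies, which was not tested. LYL1, a transcription factor of blood stem cells and a leukaemia oncogene, had a member of 301 bases at chr19:13101692-13101992 with a fold enrichment of 26.1 (log10 FDR -15.9). Its input levels were 13.7, 15.7 and 14.4 FPKM. MAPK11, a p38 stress kinase, had a member of 23.3 (log10 FDR -5.23) in the first of 4 exons. Input levels of MAPK11 were 11.6, 14.4 and 10.8 FPKM. ADAM15, a membrane metalloproteinase, had one of 20 (log10 FDR -9.02) in the first of 22 exons, at 8.96, 8.32 and 9.24 FPKM. Of these 3 genes MAPK11 varied most between input libraries. The next were the zinc finger gene ZNF394 (18.6, log10 FDR -3.93), the semaphorin SEMA4B (17.7, -6.41) and the protein kinase PRKD2 (17.7, -3.67). After them came the pyridoxal kinase PDXK (16.8, -8.92), TRIP13, an ATPase of the mitotic checkpoint, and NANS, which makes sialic acid. TRIP13 and NANS had the same values as TRAPPC6B above, 15.8 and -3.17. Likewise 23.3 and -5.23 occurred both in MAPK11 and in AL157400, a gene with a mean of 0.0508 FPKM. FPKM describes the whole gene, and the read counts behind single peaks were not available.

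With the combined treatment set against CoCl2, short exon peaks of all genes changed less often than peaks as a whole, and those that changed were more often higher than lower. The authors' deposited table called 623 of 1895 members changed (32.9%, exact 95% interval 30.8 to 35.0), against a background of 68.9% of all tested peaks. Of the members 349 were higher (18.4% of tested, background 23.1%) and 274 were lower (14.5% of tested, background 45.8%). Among changed members the higher ones thus made up 56.0% (52.0 to 60.0), against 16.2% of 765 changed long exon blocks, 39.7% of 1029 changed exon peaks across junctions and 53.2% of 1593 changed short 3' UTR peaks. Over all tested members the authors' deposited table had a median log2 fold change of 0.45, against -0.43 over all tested peaks. The called members had medians of 0.96 when higher and -1.23 when lower. A change of 2-fold or more at that FDR was found for 325 members (17.2% of tested, background 17.2%). Of these 159 were higher and 166 lower, so higher members did not outnumber lower ones at that fold. Over all tested peaks 1200 were higher and 2234 lower at 2-fold or more, so members still held relatively more higher ones. The intervals cover counting error only.

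Both shares moved with the input level of the gene. Members called in the authors' deposited table made up 14.1% in genes under 1 FPKM and 33.0% from 1 to 5. They made up 60.6% from 5 to 20 and 81.4% at 20 FPKM or more. In all other peaks the called share was 49.9%, 71.4%, 82.4% and 88.0%, so it also rose with input level, at higher values. The share of higher ones among called members was 18.5%, 48.4%, 72.2% and 73.7% in the same order. In all other peaks the share of higher ones was 14.5%, 25.6%, 38.6% and 48.6%, so it was also larger in more strongly expressed genes, at lower values. In genes of 20 FPKM or more, where 118 of 145 members were called, 87 were higher. At matched length in genes of 5 FPKM or more, members were called more often than the other peaks in the 2 shorter classes and less often in the 2 longer ones. There 50.0% of members were called under 100 bases, 66.9% from 100 up to 200, 72.0% from 200 up to 300 and 78.6% from 300 up to 400 in the authors' deposited table, against 44.0%, 60.5%, 74.3% and 83.3% of all other peaks. Each of these 4 member intervals held the value of the other peaks.

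**Figure D2:**
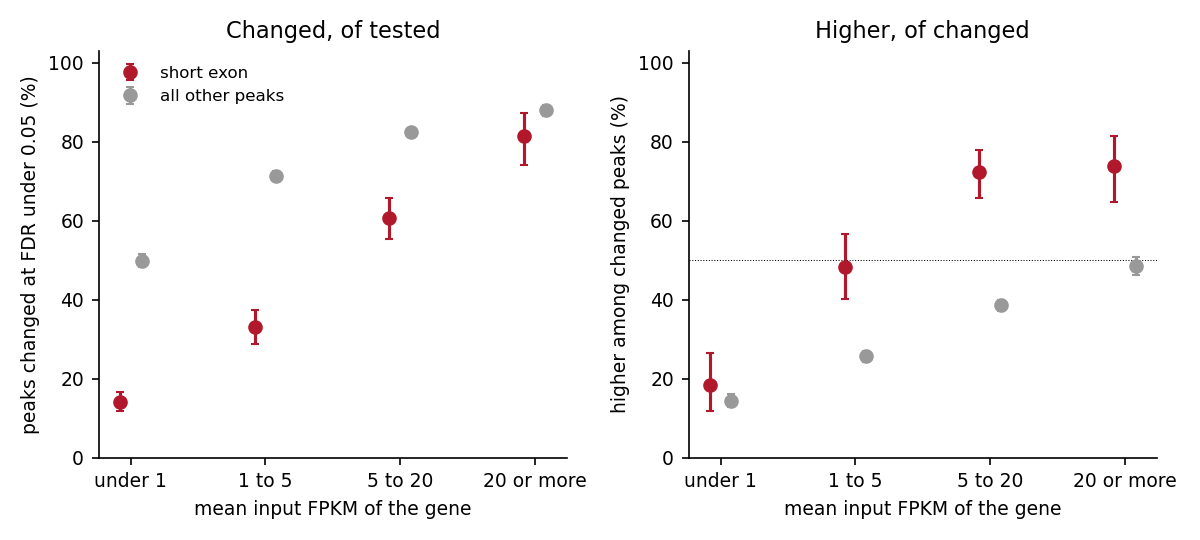
Percentage of tested peaks called changed (left) and percentage of changed peaks that were higher after the combined treatment than after CoCl2 (right), by mean input FPKM of the gene, for short exon peaks and all other peaks; bars are exact 95% intervals and the dotted line is 50%. The share of higher short exon peaks is 18.5% under 1 FPKM and 73.7% at 20 FPKM or more.

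Length moved with the direction as well. Higher members were 84.8% of those called under 100 bases, 65.1% from 100 up to 200, 54.8% from 200 up to 300 and 36.9% from 300 up to 400 bases, by the authors' deposited table. Exon peaks across junctions had 89.8%, 77.6% and 61.3% from 100 bases upwards and 12 of 12 under 100 bases, and short 3' UTR peaks 73.8%, 62.6%, 56.1% and 39.6%. The lean towards higher values in short peaks was therefore found in each of these 3 classes. At 5 FPKM or more the member shares were 86.9%, 76.1%, 75.6% and 54.3%, against 79.9%, 76.6%, 72.0% and 60.6% in all other peaks of the same lengths. Each of these member intervals held the value of the other peaks. Exon peaks across junctions had 92.9%, 89.4% and 82.4% there from 100 bases upwards. How far length itself, input level or the authors' normalisation sets these shares was not tested.

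**Figure D3:**
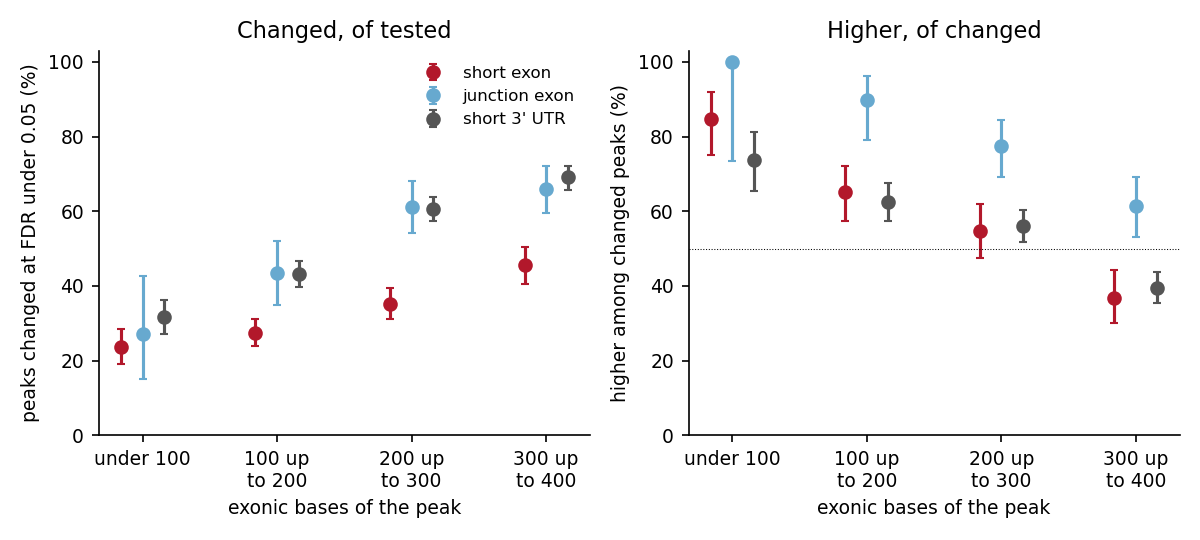
Percentage of tested peaks called changed (left) and percentage of changed peaks that were higher after the combined treatment than after CoCl2 (right), by exonic bases, for short exon peaks, exon peaks across junctions and short 3' UTR peaks; bars are exact 95% intervals. In all 3 classes the share of higher peaks falls with length, to 36.9% for short exon peaks of 300 up to 400 bases.

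By kind of gene, higher members were 66.0% of 429 called in protein-coding genes, 24.2% of 62 in long noncoding RNAs, 48.7% of 39 in pseudogenes and 33.3% of 90 in genes the RefSeq table does not list, in the authors' deposited table. In all other peaks these shares were 34.5%, 16.1%, 19.3% and 17.1%, so protein-coding genes were highest there too. In genes of 1 FPKM or more, the member shares were 69.8% of 391 in protein-coding genes and 37.5% of 32 in long noncoding RNAs. They were 68.0% of 25 in pseudogenes and 44.7% of 47 in unlisted genes. All other peaks had 36.6%, 14.8%, 21.3% and 22.3% at that level. By place in the transcript, higher members were 66.1% of 112 in first exons and 61.9% of 252 in internal exons. They were 43.3% of 171 in the last of several exons and 51.1% of 88 in single-exon transcripts. The other exon peaks had 31.4%, 38.0%, 14.6% and 26.0% in the same order, so the last of several exons was lowest there too. In protein-coding genes of 5 FPKM or more the member shares were 77.4% of 62 in first and 73.1% of 175 in internal exons. They were 75% of 60 in last exons and 3 of 6 in single-exon transcripts. The other exon peaks of such genes had 45.6%, 52.0%, 35.5% and 52.1% in the same order.

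The 10 largest rises among genes of 1 FPKM or more were in 6 protein-coding genes, 1 long noncoding RNA and 3 loci that the RefSeq table does not list. The authors' deposited table gave the highest log2 fold change, 4.94, to ZSCAN16-AS1, an antisense RNA, at input levels of 1.93, 2.29 and 2.23 FPKM. ACAT1, a mitochondrial thiolase of ketone and isoleucine metabolism, had 4.01 in the authors' deposited table at chr11:108128941-108129180 (log10 FDR -7.77), at 4.4, 4.25 and 4.03 FPKM. SS18L1, a chromatin-remodelling subunit, had 3.30 (log10 FDR -11.2) in the authors' deposited table, at 7.95, 8.24 and 7.94 FPKM. The input levels of these 3 genes differed little between libraries of the combined treatment. OMG, a myelin glycoprotein, had 3.79 in the authors' deposited table at 6.08, 6.49 and 6.86 FPKM. OMG and ZSCAN16-AS1 lie opposite to or within other genes, and no source used here says whether reads were counted by strand. Also by the authors' deposited table, SPG7 had 3.09, SNRNP200, the helicase that unwinds U4 and U6 RNA in the spliceosome, 2.98, and PTMA, prothymosin alpha, 2.91. PTMA was the most expressed of the 10, at 106, 110.0 and 111 FPKM. The unnamed loci AC093462, AC024560 and AP003733 had 4.03, 3.21 and 3.19 in the authors' deposited table.

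The largest falls were in PHF14, a PHD finger chromatin protein, with -4.11 in the authors' deposited table at 1.82, 1.92 and 1.76 FPKM, and in BAZ2A, which silences ribosomal RNA genes, with -3.35 at 39.2, 37.5 and 36.1 FPKM. The divergent noncoding RNA GARS1-DT had -3.17 and TTLL3, a tubulin-modifying enzyme, -3.01 in the authors' deposited table. Lower down came THAP6 (-2.69), the snoRNA host RNA SNHG29 (-2.52), DNAAF5, a dynein assembly factor (-2.46), and PES1, a ribosome biogenesis factor (-2.34), with the loci AC096921 (-2.70) and AC011498 (-2.33), all by the authors' deposited table. SNHG29 stood at 100.2, 104 and 106 FPKM, and PES1 at 23.2, 22.8 and 23.6 FPKM. In these 20 members the log10 FDR ran between -11.2 and -1.34. All 10 with the highest change overlapped a listed peak of the combined treatment by at least 1 base, and 2 of the 10 with the lowest did, BAZ2A and AC011498.

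**Figure D4:**
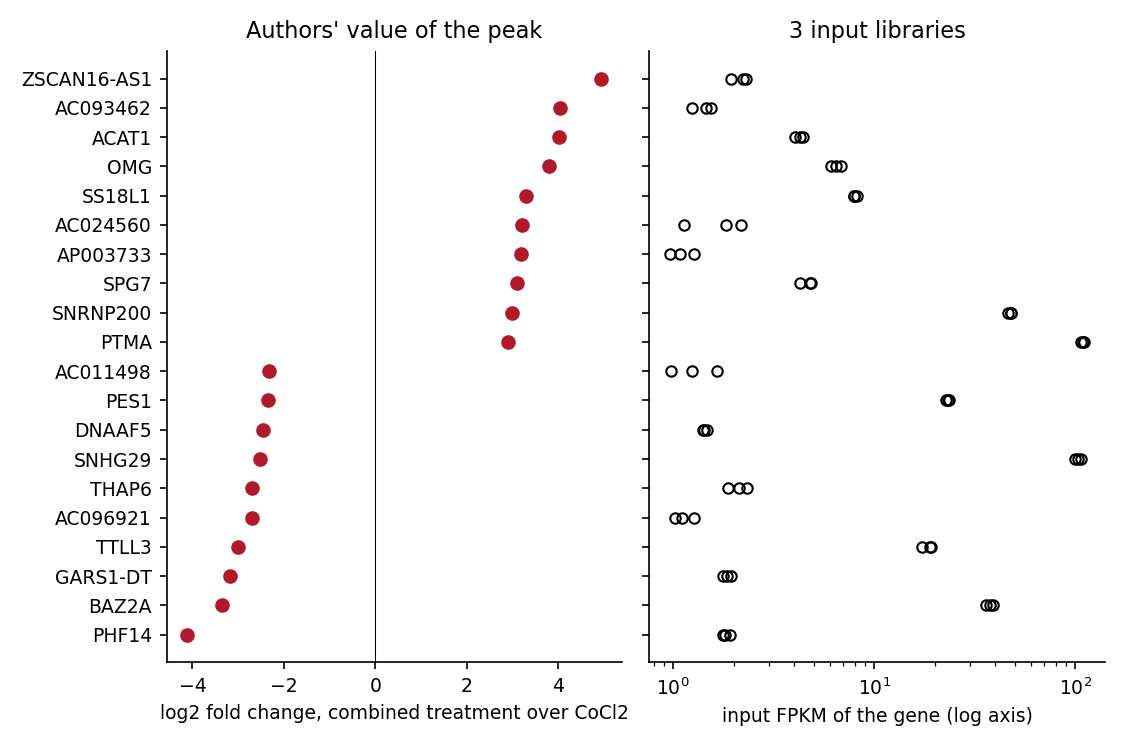
Log2 fold change of enrichment, combined treatment over CoCl2 (authors' value, left), for the 10 highest and 10 lowest called short exon peaks in genes of 1 FPKM or more, and input FPKM of the same genes in each of the 3 input libraries of the combined treatment (log axis, right). Values run from 4.94 in ZSCAN16-AS1 to -4.11 in PHF14.

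The smallest authors' p-values, looked up after the values were seen, belonged to strongly expressed genes. RPL5, a ribosomal protein, had a member of 121 bases with a log2 fold change of 1.59 (log10 FDR -434) in the authors' deposited table, at 349, 344 and 380.2 FPKM. RPS24, also a ribosomal protein, had 0.34 with the same log10 FDR in the authors' deposited table, at 498, 506 and 497 FPKM. The authors' p-value was listed as 0 for both, so the shared log10 FDR does not mean equal evidence. GLUL, glutamine synthetase, had 0.69 in the authors' deposited table at 47.3, 46.9 and 46.6 FPKM. The pseudogene RPL5P34 had 1.37 there in the authors' deposited table, close to RPL5, and reads of the 2 can be exchanged. ZDHHC5, a palmitoyltransferase, had -1.17 in the authors' deposited table, while PLEK, a protein kinase C substrate of platelets and leukocytes, had 1.04. CCNI, a cyclin, had 0.91, PAN2 1.04 and EWSR1, an RNA-binding protein of sarcoma fusions, 0.80 in the authors' deposited table. Among these members were 2 further pseudogenes, MORF4L1P1 with 0.91 and RPL13AP25 with -1.49 in the authors' deposited table.

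Of 25 genes of the m6A machinery 5 had a member in the list of IP against input. The median fold enrichment was 1.75 over their 6 members, beside 3.73 over all members. YTHDC2, a helicase reader of m6A, had 2.06, the eraser ALKBH5 had 1.69 and the eraser FTO had 1.78 and 2.24 in neighbouring stretches of 1 exon. IGF2BP3 (1.72) and HNRNPA2B1 (1.31), both RNA-binding readers, did not reach an FDR of 0.05. By mean input, ALKBH5 and HNRNPA2B1 were at 20 FPKM or more, where the median over all members was 1.77. YTHDC2 and IGF2BP3 were between 1 and 5 FPKM (member median 2.79), and FTO was under 1 FPKM (member median 5.12). Each of these m6A gene members was below the median of its class of input level, a difference that was not tested. YTHDC2 was also tested against CoCl2, at 0.50 (log10 FDR -2.57) in the authors' deposited table, with input levels of 3.74, 3.80 and 3.25 FPKM. The reader YTHDF2 had a member only among the peaks tested against CoCl2, with a similar value of 0.50 in the authors' deposited table. It was not called (log10 FDR -0.46). The other 40 tested peaks of the m6A machinery genes were higher in 16 cases and lower in 20. Over all tested peaks 23.1% were higher and 45.8% lower.

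In HIF pathway genes 3 of 5 tested members were called and all 3 were lower in the authors' deposited table, where the list's median was -0.18 beside -0.43 over all tested peaks, of which 23.1% were higher and 45.8% lower. VEGFA, the angiogenic growth factor that HIF-1 induces, had a member of -0.87 (log10 FDR -2.06) at chr6:43780739-43780889 and another of -0.17 that was not called, at 13.1, 11.9 and 12.1 FPKM. In the list of IP against input VEGFA had 4 members, with fold enrichments of 1.15, 6.69, 2.41 and 3.64. HIF1A, the subunit whose stability oxygen controls, had -0.18 (log10 FDR -2.11) in the authors' deposited table, at 25.2, 26.4 and 24.8 FPKM. KDM4B, a histone demethylase induced by hypoxia, had -1.08 in the authors' deposited table at 2.10, 2.17 and 2.11 FPKM. The other 49 tested peaks of these genes were called higher in 17 cases and lower in 24.

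Members in splicing factor genes were mostly higher. Of 6 tested, 5 were higher and none was lower in the authors' deposited table, with a median of 0.47. Over all tested peaks 23.1% were higher, and of the 145 tested members in genes of 20 FPKM or more 87 were. DDX39B, an RNA helicase of splicing and export, had 1.23 (log10 FDR -15.3) in the authors' deposited table in a block of 61 bases, at 108, 100.2 and 102 FPKM. THRAP3 had 0.63 and SRRM2, a spliceosome scaffold, 0.20 in the authors' deposited table, beside SNRNP200 above. The genes of this list had 49 other tested peaks, of which 29 were higher and 10 lower, so the direction was not limited to short exon peaks.

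Chromatin regulators were mixed, with 4 members higher and 3 lower of 10 tested and a median of -0.33 in the authors' deposited table, beside 23.1% higher and 45.8% lower over all tested peaks. The other 165 tested peaks of these genes were higher in 53 cases and lower in 89. The histone demethylase KDM5C had 0.98 (log10 FDR -14.9), the remodeller CHD8 0.96 and the co-repressor SIN3A 0.48, while TET2, which oxidises methylcytosine and is often mutated in myeloid leukaemia, had -0.88 (log10 FDR -7.57) in the authors' deposited table. TET2 stood at 9.77, 8.87 and 9.21 FPKM. In TNF and NF-kB signalling 2 of 3 tested members were higher, around a list median of 0.49, in the authors' deposited table, NFKB2, a subunit of NF-kB, with 1.97 (log10 FDR -8.84) and CYLD, a deubiquitinase that restrains it, with 0.49. The other 40 tested peaks of that list were higher in 7 cases and lower in 25. TOP1, topoisomerase I, was the 1 called member of 5 tested among DNA damage genes, at 0.96 in the authors' deposited table. Over all members 32.9% were called, and over all tested peaks 68.9%. The other 62 tested peaks of the DNA damage list were higher in 26 cases and lower in 24. In the cell cycle list, with 4 tested in the authors' deposited table, CCND2, a cyclin D, was higher at 1.27. MCM5, a subunit of the replicative helicase, and ASPM, a spindle protein, were lower there at -0.71 and -0.53. The other 71 tested peaks of the cell cycle list were higher in 36 cases and lower in 23. By the authors' deposited table, none of 3 tested members was called among apoptosis and p53 target genes. The same held for the 1 tested member each of haematopoietic transcription factors, the unfolded protein response and myeloid markers. With 32.9% called over all members, counts this small cannot show a difference. Other tested peaks of apoptosis and p53 target genes were higher in 16 and lower in 35 of 65 cases. For the transcription factors these numbers were 7 and 28 of 48. They were 11 and 14 of 28 for the unfolded protein response and 6 and 8 of 17 for myeloid markers.

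Within single genes, the short exon peak and the 3' UTR peak had the same sign more often than opposite ones, and where the signs differed the short exon peak was mostly the higher. In 219 genes both a member and a 3' UTR peak were called, each taken as the one with the lowest authors' p. The member was higher and the 3' UTR peak lower in 80 genes, both were higher in 62, both lower in 68, and the member was lower and the 3' UTR peak higher in 9, so that 89 of 219 pairs (40.6%) had opposite signs. In these genes the median log2 fold change was 0.56 for members and -0.47 for 3' UTR peaks, and the median difference within a gene was 0.47 (quartiles -0.10 and 1.33), from the authors' deposited table. Against 5' UTR peaks, in 105 genes, the member was higher and the other lower in 25 and the reverse held in 4. Against long or junction-spanning exon peaks, in 105 genes, these numbers were 18 and 5. The gene is shared within such a pair, but the lengths of the peaks are not matched.

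The following genes were chosen after their values were seen, from among the widest differences within a gene. In TBC1D17, a GTPase-activating protein, the member had 1.57 and the 3' UTR peak -1.59 in the authors' deposited table. USB1, which trims U6 RNA, had 0.94 and -1.95, and DOT1L, the histone H3 lysine methyltransferase that MLL fusions recruit, 2.65 and -0.22, in the same order and from the authors' deposited table. GPS1, a COP9 signalosome subunit, had 2.51 and -0.35, and ZNHIT3 2.27 and -0.64 in the authors' deposited table. BAZ2A went the other way, with -3.35 in the member and 1.20 in the 3' UTR peak in the authors' deposited table. DOT1L stood at 4.99, 5.13 and 4.84 FPKM and GPS1 at 13.5, 14.7 and 13.9 FPKM.

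**Figure D5:**
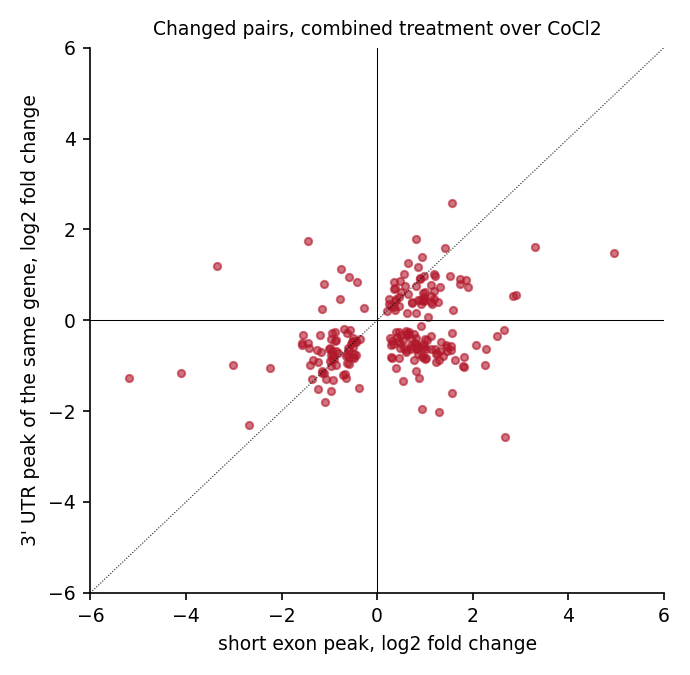
Log2 fold change of the short exon peak (horizontal) against that of the 3' UTR peak of the same gene (vertical), combined treatment over CoCl2 by the authors' deposited table, for the 219 genes in which both were called; each point is a gene and the dotted line marks equal values. The lower right part of the plot, with the short exon peak higher and the 3' UTR peak lower, holds 80 genes, and the upper left holds 9.

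Of 45 gene symbols with 2 or more called members, 5 had members in both directions. HDLBP, an RNA-binding protein of the endoplasmic reticulum, had -0.62 and 0.97 in the authors' deposited table, and RUSC2 -0.81 and 0.48. The symbols AC011498 and AL022328 each cover 2 loci with different input levels. STKLD1 had -2.35 and 4.96 in the authors' deposited table at input levels of 0.411, 0.442 and 0.480 FPKM.

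The 2 tables shared part of their members. Of the 1895 differential members 910 (48.0%) shared at least 1 base with a member of the peak list, which was 927 of 6075 (15.3%) counted from the peak list, and 1342 (70.8%) shared bases with any listed peak. The same start and end occurred in 145. Ordered by the authors' deposited table from low to high log2 fold change, the share of members that met any listed peak of the combined treatment was 23.3% from -8 to -2, 43.3% from -2 to -1 and 55.1% from -1 to 0. It was 97.3% from 0 to 1, 95.7% from 1 to 2 and 95.6% from 2 to 10. Over all tested peaks these shares were 42.5%, 76.8%, 92.3%, 98.6%, 96.8% and 96.6%.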

How the data were processed

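Kasumi-1 cells were profiled by m6A immunoprecipitation sequencing, and the analysis started from the tables the authors deposited. Fragmented poly(A) RNA was divided between input and pulldown and made into strand-marked libraries, per the labels' protocols. ChIPseeker, HOMER, HISAT2 and fastp are named, without roles or versions, per the submitters' processing notes. Peak caller, genome build, annotation and depth: not given in the sources used here.

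The authors deposited fold enrichment as a linear ratio with a p-value per peak, a log2 fold change for the differential peaks, and log10 FDR values, which were read as a score. FPKM was deposited by the authors per gene and input library, and 6 other per-sample columns were not used. The name of the differential table puts the combined treatment before CoCl2, and its fold changes were read in that direction.

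Rows repeated with the same gene and limits were counted once, which removed 16 and 4 rows. Overlaps needed 1 shared base on the same strand. The annotation gives a hairpin's limits in 3 members exactly as RefSeq (GRCh38.p14) does, and 41.6% of 10420 genes had their transcript start on the RefSeq start, so RefSeq windows and hairpins were read by the tables' coordinates. Shares carry exact Clopper-Pearson 95% intervals. The parser, overlap and intervals were tested on simulated data. Members, the 11 gene lists and the rule for named genes were chosen with earlier results of these data known. The rule took the 10 highest and 10 lowest called log2 fold changes at 1 FPKM or more, the 10 highest fold enrichments at 5 FPKM or more, up to 4 called members per list by lowest p, the m6A genes, VEGFA and HIF1A, the genes with the most members, the peaks nearest the length limit, and genes called both ways. One cell type marker is not reported here. Python 3.11.15 was used.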

Additional observations from a re-analysis of the deposited data

How the results depend on the processing

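The share of changed short exon peaks that were lower was 44.0%. It was 35.7% at an FDR under 0.01, 35.8% with blocks under 300 bases and 34.9% in genes of 1 FPKM or more. Among members that overlap a listed peak it was 27.9%, but the listed peaks are those of the combined treatment, so this filter itself removes lower members. It was 49.7% with blocks under 500 bases and 51.1% at 2-fold or more, where lower peaks were in the majority. The count of changed members, 623, became 325 at 2-fold or more. With genes of 5 FPKM or more alone, an alternative chosen after seeing the data, the count was 341 and the lower share 27.3%. Leaving out pseudogenes and members that share bases with another gene's peak, also chosen after seeing the data, gave 579 and 43.5%.

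Median fold enrichment, 3.73, was 3.46 at an FDR under 0.05, 3.42 with blocks under 300 bases, 3.97 under 500, 2.50 in genes of 1 FPKM or more and 4.19 with 1 member per gene. The last-exon share was 54.8% at an FDR under 0.05. With any of the 3 pentamers the motif share was 32.4%, and it was 8.11% on the opposite strand. Overlaps between the tables fell to 145 when start and end had to match. The median input level of genes with a member was 4.01 FPKM among those of 1 FPKM or more, and 0.890 to 0.929 FPKM leaving out each replicate in turn. No paired analysis was possible because the tables give 1 value per peak and no replicate values. Depth is unknown, so no limit of detection can be set for weakly expressed genes.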
